A study of Mus musculus with 13 samples.

Results

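The genes described here are 44 genes of mitosis and of the kinetochore, the protein assembly that ties each chromosome to the spindle. They were chosen by symbol, as a list of cell division genes, and all 44 were found among the 55291 gene symbols counted. The choice was made with earlier results of these data known. Ube2c, Ccnb1, Ccnb2, Ckap2, Kif22 and Spc25 had been seen in the study, so the list is not independent of the data. The list holds 6 cyclins, cyclin-dependent kinases and their partners, 2 genes of proliferation and chromosome structure, 6 genes of the anaphase promoting complex and the spindle checkpoint and 7 centromere and kinetochore genes. It also holds 8 kinesins, 7 mitotic kinases, passenger proteins and related genes, and 8 genes of the spindle and of cytokinesis. Each member was counted in each of the 13 libraries, with deposited counts between 2 and 2514.

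The libraries are RNA sequencing libraries of the CA1 region, each from a single organotypic entorhino-hippocampal tissue culture of wildtype C57BL/6 mice. Cultures had been prepared at postnatal day 4 to 5 from animals of either sex and had grown for at least 18 days in vitro. The groups were 5 non-lesioned control cultures, 4 cultures after Schaffer collateral lesion (SCL), in which a scalpel cut the CA3 axons that run to CA1, and 4 after entorhinal cortex lesion (ECL), in which it cut the input from the entorhinal cortex. RNA was isolated 3 days after the lesion. No group carried another allele or agent. A slice culture keeps the local cells of the hippocampus but has no blood flow, and whole CA1 tissue mixes neurons and glia. The titles name CA1 as the tissue, while the protocol text speaks of the dentate gyrus. All 4 CA1 pyramidal markers examined were counted in every library, with summed levels of 4356 to 9227. Of the 3 dentate granule cell markers, summing to 257 to 494, 2 were at 0 in at least 1 library. The 3 CA3 pyramidal markers, summing to 299 to 759, were also counted in every library. Sums of different genes do not compare amounts of cell types.

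At the entry into mitosis, cyclin B binds and activates the kinase Cdk1, chromosomes condense, and kinetochores form on centromeres that carry the histone variant Cenpa. The NDC80 complex of the outer kinetochore holds the microtubules, and the spindle checkpoint restrains the anaphase promoting complex until all chromosomes are attached. That complex then marks cyclin B for destruction, the chromosomes part, and kinesins, the centralspindlin complex and the chromosomal passenger complex direct the division of the cell body. Most of these genes are transcribed mainly in G2 and M phase, so that their RNA comes mostly from dividing cells. Neurons of CA1 no longer divide, whereas microglia, astrocytes and oligodendrocyte precursors can.

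Total counts were 14371152 to 21092612 in control, 16405517 to 56786613 in SCL and 20210165 to 46449937 in ECL libraries. The 44 genes took 0.0199% to 0.0332% of all counts in controls, 0.0592% to 0.0656% after SCL and 0.0295% to 0.0521% after ECL. Counts of mitochondrially encoded genes were 6.07% to 7.96% of the total in controls, 3.42% to 4.26% after SCL and 4.10% to 5.38% after ECL. By the column headings, 2 of 5 control, 1 of 4 SCL and 3 of 4 ECL cultures were male. With a term for sex, edgeR called 16 of 24 genes tested after SCL and 3 of 17 after ECL. The counts were the same without it in the 150-count fit described below, where 13.3% and 15.2% of all genes were called higher. The part of the mitochondrial share, or of depth, in the results was not tested. Levels below are normalised read counts, scaled to the geometric mean of the effective library sizes of the 13 libraries, and are given in the order of the replicate numbers.

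As a group the genes were higher after SCL. After ECL, edgeR called 11 of the 44 (25%) higher in the fit that tested all 44, against 11.7% of all genes. In the 150-count fit it called 3 of 17 (17.6%), near the 15.2% of all genes. Without adjustment, 16 of the 44 had an edgeR p-value under 0.05 after ECL in either direction, against 35.4% of all genes. The summed level of the 44 genes was 4991 to 8985 in controls, 13572 to 16531 after SCL and 6703 to 11984 after ECL. The SCL mean was 2.23 times and the ECL mean 1.34 times the control mean. SCL and control libraries did not overlap in this sum, while ECL and control libraries did. In bulk tissue, more cells of a type and more RNA per cell cannot be told apart.

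**Figure D1:**
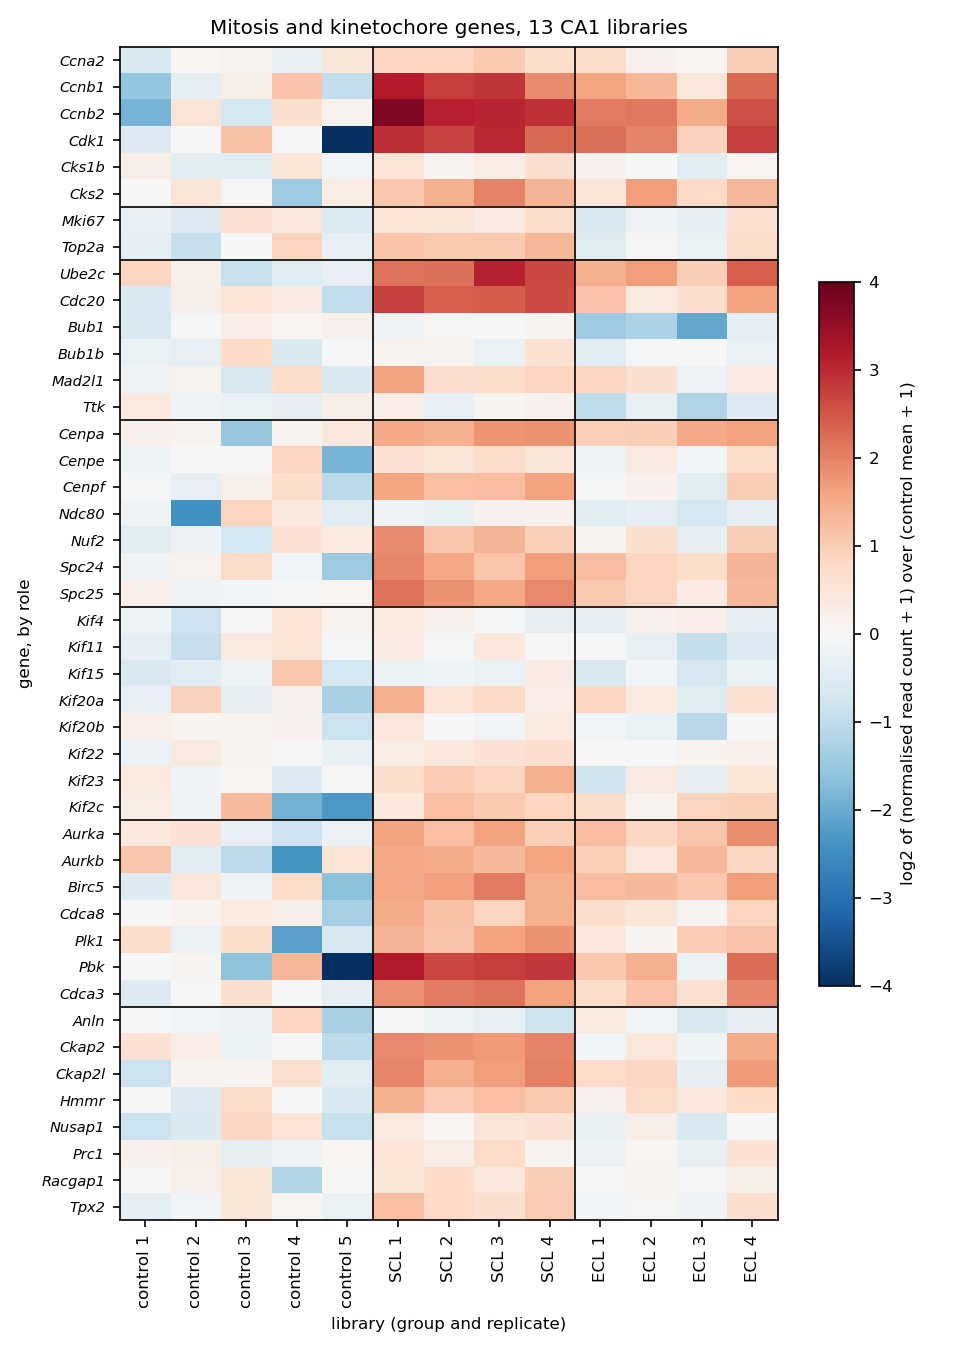
Level of each of the 44 genes (vertical axis, by role) in each of the 13 libraries (horizontal axis), as the log2 ratio of the normalised read count plus 1 to the control mean plus 1, with the colour scale ending at 4 in either direction. The SCL columns are above the control mean for most cyclin, kinetochore and kinase genes. The kinesins had the smallest median change of the roles, and of them edgeR called Kif23 after SCL.

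Tests used edgeR on all genes with Benjamini-Hochberg adjustment, and a gene was called where the adjusted p-value was under 0.05. Genes entered a fit with a mean of at least 150 normalised counts (the 150-count fit) or, so that all 44 genes were tested, of at least 10 (the 10-count fit). In the 10-count fit, 24 of the 44 genes were called higher after SCL, against 9.19% of the 21705 genes tested, and 0 lower, against 7.49%. Without adjustment, 30 of 44 had an edgeR p-value under 0.05, all for a rise, against 33.7% of all genes in either direction, and DESeq2 called 28 higher, against 11.7%, and 0 lower, against 12.7%. After ECL, 11 of 44 were called higher, against 11.7% of 21159 genes, and 0 lower, against 11.4%. Without adjustment, 15 had an edgeR p-value under 0.05 for a rise and 1, Bub1, for a fall, against 35.4% of all genes in either direction, and DESeq2 called 12 higher, against 13%, and Bub1 lower, against 14.7%. With no minimum, edgeR called 30 of the 44 higher after SCL, against 6.59% of 48069 genes, and 16 after ECL, against 7.23% of 47784. The median log2 fold change of the 44 genes was 1.18 after SCL and 0.55 after ECL, where the medians over all genes tested were -0.02 and -0.01. In the 150-count fit, 53.5% of all calls after SCL and 54.8% of those after ECL were higher. With TMM factors over all symbols these shares were 80.8% and 77.8%. The median log2 fold change of all genes rose by 0.20 and 0.19. With these factors, 20 of 24 genes of the list were called higher after SCL, against 2516 of all 11438 genes tested. After ECL 3 of 17 were, against 2435 of 11212. With DESeq2 size factors in edgeR the shares of calls that were higher were 64.0% and 62.8%. Then 16 of 24 genes of the list were called higher after SCL, against 1761 of 11438. After ECL 3 of 17 were, against 1923 of 11212. Both comparisons use the same 5 controls, so they are not independent.

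All 11 genes called after ECL were also called after SCL: Ccnb1, Ccnb2, Cdk1, Cks2, Ube2c, Cenpa, Spc24, Spc25, Aurka, Birc5 and Cdca3. A further 13 were called after SCL and not after ECL: Ccna2, Top2a, Cdc20, Mad2l1, Cenpf, Nuf2, Kif23, Cdca8, Pbk, Ckap2, Ckap2l, Hmmr and Tpx2. The other 20 were called after neither lesion. SCL and control libraries did not overlap for 25 genes, against 8.13% of all genes, and ECL and control libraries for 7, against 9.03%. Of the genes with a mean of at least 150, 16 of 24 were called higher after SCL, against 13.3% of the 11438 genes tested, and 3 of 17 after ECL, against 15.2% of 11212. On the scale of the printed levels, 8 of these genes after SCL and 2 after ECL, Cdk1 and Pbk, reached the minimum only through the lesioned libraries. The share called among genes with a mean of at least 150 is therefore not that of the whole list. Log2 fold changes below are from the 150-count fit where the gene was in it and otherwise, where stated, from the 10-count fit. In the 10-count fit, the log2 fold changes of genes in both fits were 0.07 to 0.10 higher, and each gene had the same call.

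**Figure D2:**
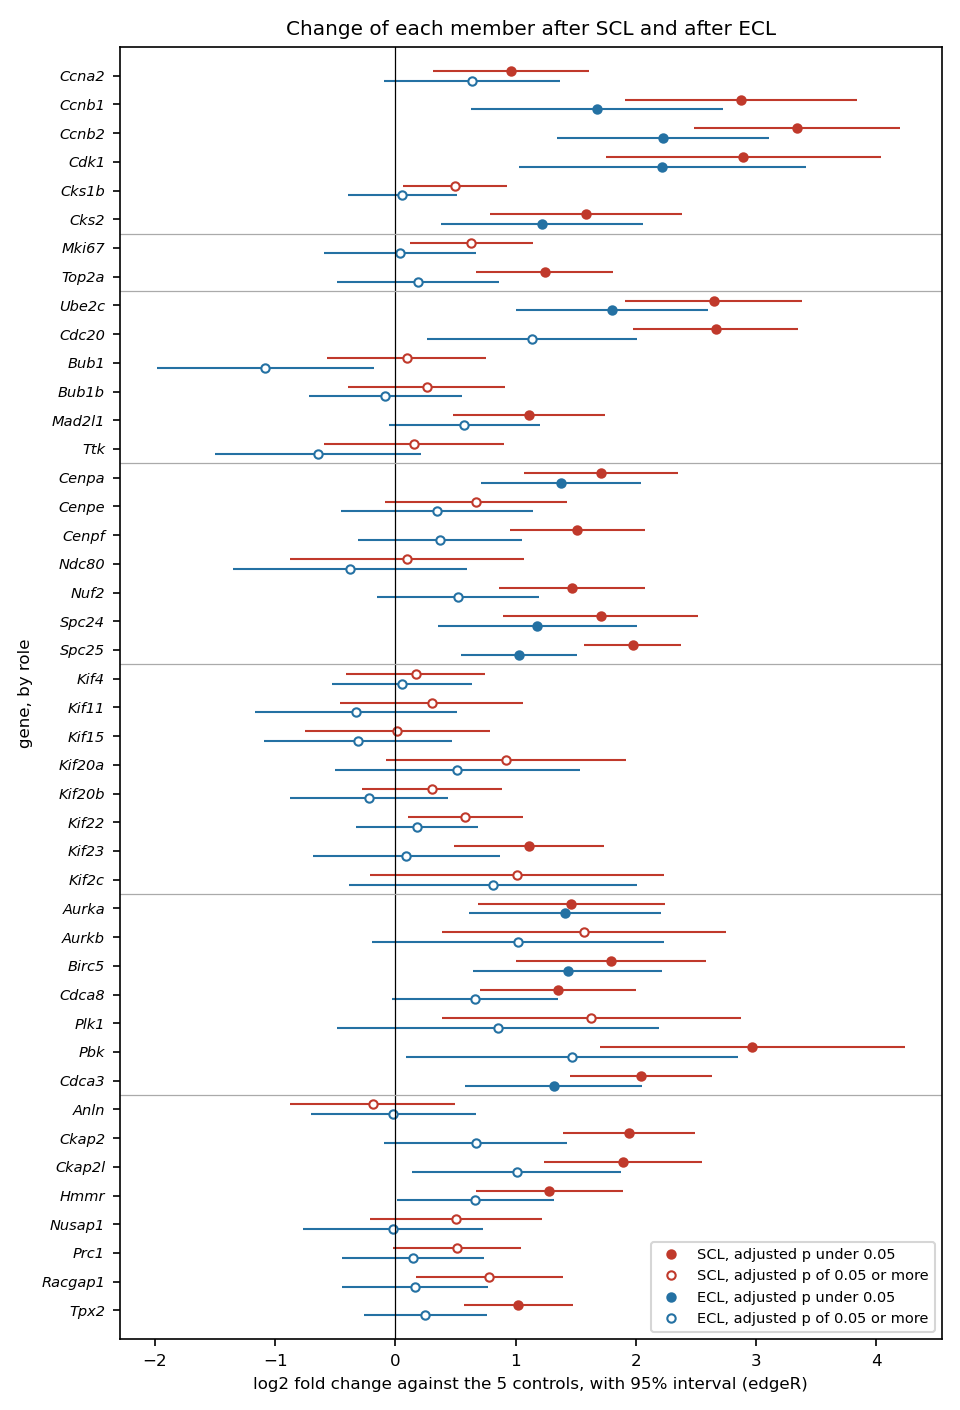
Log2 fold change against the 5 controls with its 95% interval (horizontal axis) for each of the 44 genes by role (vertical axis), from the 10-count fit, in red after SCL and in blue after ECL, filled where the adjusted p-value was under 0.05. Filled points number 24 after SCL and 11 after ECL, and none lies below 0. Among the roles, the median of the kinesins lies nearest to 0.

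The promoters of these genes are shown because a pair of short sequence elements recurs in them. Genes of G2 and M phase are known to carry a cell cycle genes homology region (CHR, TTTGAA), bound by the DREAM and MuvB complexes, beside CCAAT boxes, bound by NF-Y. RefSeq promoters on GRCm38.p6, from 250 bases before to 50 bases after the annotated start, matched 38 of the 44 genes by symbol. Ccna2, Spc24, Kif20a, Aurkb, Pbk and Tpx2 had no entry. The 150 bases before the start follow for 7 genes, read 5′ to 3′ along the gene's strand, with TTTGAA and CCAAT on either strand in capitals (TTCAAA and ATTGG on the opposite strand). They are Cdk1 (chr10:69352913-69353062, minus strand), Ccnb1 (chr13:100786487-100786636, minus), Ccnb2 (chr9:70421555-70421704, minus), Ube2c (chr2:164769779-164769928, plus), Cdc20 (chr4:118437344-118437493, minus), Spc25 (chr2:69206214-69206363, minus) and Ndc80 (chr17:71526858-71527007, minus). The first 6 were called after SCL, and Ndc80, of the same kinetochore complex as Spc25, after neither lesion.
Cdk1: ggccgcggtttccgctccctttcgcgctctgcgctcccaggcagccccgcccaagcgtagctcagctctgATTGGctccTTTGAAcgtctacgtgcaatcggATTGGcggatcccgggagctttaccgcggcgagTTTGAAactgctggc
Ccnb1: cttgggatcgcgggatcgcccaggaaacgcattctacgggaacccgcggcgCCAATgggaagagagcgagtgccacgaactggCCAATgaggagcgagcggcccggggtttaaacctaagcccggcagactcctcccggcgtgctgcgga
Ccnb2: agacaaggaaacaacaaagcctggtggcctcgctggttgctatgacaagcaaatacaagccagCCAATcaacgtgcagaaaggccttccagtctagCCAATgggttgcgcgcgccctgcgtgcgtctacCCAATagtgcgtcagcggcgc
Ube2c: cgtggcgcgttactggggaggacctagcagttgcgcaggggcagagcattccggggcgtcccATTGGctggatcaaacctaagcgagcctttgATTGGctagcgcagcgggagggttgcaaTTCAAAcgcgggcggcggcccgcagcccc
Cdc20: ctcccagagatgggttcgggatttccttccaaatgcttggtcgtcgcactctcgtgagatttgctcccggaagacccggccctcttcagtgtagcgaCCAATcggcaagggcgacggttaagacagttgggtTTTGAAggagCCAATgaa
Spc25: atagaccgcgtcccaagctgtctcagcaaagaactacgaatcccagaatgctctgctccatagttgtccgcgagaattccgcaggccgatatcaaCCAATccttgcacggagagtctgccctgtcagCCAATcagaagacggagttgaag
Ndc80: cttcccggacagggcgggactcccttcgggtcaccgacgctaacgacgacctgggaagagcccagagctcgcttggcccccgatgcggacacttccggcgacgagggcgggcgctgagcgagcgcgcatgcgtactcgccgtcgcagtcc

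Cdk1 held TTTGAA at 71 and at 15 bases before the start, Ube2c at 29 and Cdc20 at 18 bases before it. In Ccnb2, Spc25 and Ndc80 a TTTGAA lay 4, 24 and 29 bases after the start, outside the stretch shown. Ccnb1 held none in its 300 bases but had 2 CCAAT boxes, at 99 and 67 bases before the start. Of the 38 promoters, 30 held TTTGAA on either strand (78.9%), against 20.2% of all 27025 promoters. Within 100 bases before to 50 after the start it was in 28 (73.7%), against 9.23%. CCAAT was in 29 (76.3%), against 41.1%, and at least 2 CCAAT boxes were in 21 (55.3%), against 13.3%. Both a TTTGAA near the start and a CCAAT stood in 24 (63.2%), against 3.65%. The motifs can share at most 1 base, and the narrower window was chosen after the positions were seen. Birc5, Mad2l1, Nuf2 and Nusap1 held neither motif. A match describes the letters in this window and says nothing of binding.

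By class of call, TTTGAA near the start was in 7 of 10 promoters of genes called after both lesions, in 7 of 10 called after SCL alone and in 14 of 18 called after neither. At least 2 CCAAT boxes were in 9 of 10, 6 of 10 and 6 of 18. These shares are counts of few genes and were not tested.

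**Figure D3:**
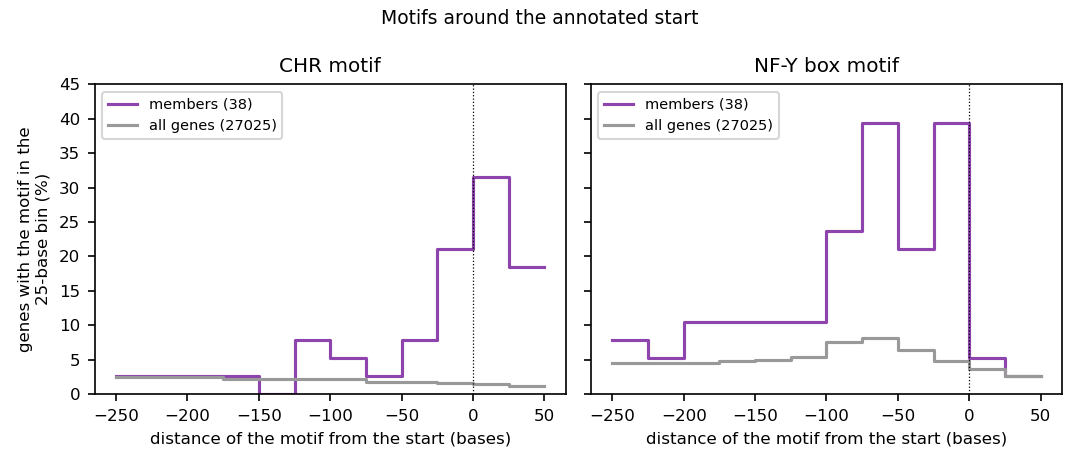
Share of promoters (vertical axis, percent) with TTTGAA (left, CHR) or CCAAT (right, NF-Y box) in each 25-base bin of distance from the annotated start (horizontal axis, bases), for the 38 genes of the list and for all 27025 genes with a promoter. TTTGAA gathers around the start and CCAAT in the 100 bases before it, while the line of all genes varies less.

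Of the 6 cyclins, cyclin-dependent kinases and partners, 5 were called higher after SCL and 4 after ECL (of all genes, 9.19% and 11.7%), with median log2 fold changes of 2.23 and 1.45 in the 10-count fit. Ccnb2, a B-type cyclin, had 14.4, 79.2, 33.3, 87.2 and 61.5 normalised counts in the 5 controls, 737, 484, 465 and 425 after SCL and 237, 244, 158 and 334 after ECL. The 3 groups did not overlap, with ECL between control and SCL. The log2 fold change was 3.26 ± 0.40 (log2, SE, edgeR, adjusted p = 0.00106) after SCL, or 9.57-fold, and 2.22 ± 0.41 (log2, SE, edgeR, 10-count fit, adjusted p = 0.00196) after ECL. Ccnb1, the B-type cyclin that is essential for division, had 14.4, 34.6, 52.4, 98.8 and 22.1 in controls, 408, 309, 329 and 167 after SCL and 134, 114, 60.8 and 220.0 after ECL. Each SCL library was above each control, while ECL replicate 3 lay below control replicate 4. It rose by 2.77 ± 0.46 (log2, SE, edgeR, adjusted p = 0.00246) after SCL and by 1.67 ± 0.49 (log2, SE, edgeR, 10-count fit, adjusted p = 0.0230) after ECL, and the latter call was lost without ECL replicate 1 (edgeR, adjusted p = 0.0563) or 4 (adjusted p = 0.109).

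Cdk1, the kinase that B-type cyclins activate, had 51.1, 74.2, 165, 71.8 and 3.16 in controls, 571, 480.2, 603 and 366 after SCL and 339, 293, 141 and 492 after ECL. Control replicate 5 was far below the other controls, and ECL replicate 3 lay below control replicate 3. The log2 fold changes were 2.79 ± 0.56 (log2, SE, edgeR, adjusted p = 0.00514) after SCL and 2.12 ± 0.58 (log2, SE, edgeR, adjusted p = 0.0149) after ECL, the latter not called without ECL replicate 4 (edgeR, adjusted p = 0.0516). Cks2, a small subunit of cyclin-dependent kinases, had 57.7, 81.6, 60.3, 20.5 and 72.6 in controls, 126, 158, 233 and 153 after SCL and 81.7, 189, 101 and 144 after ECL. Both lesions were above the controls without overlap, though ECL replicate 1 (81.7) only just exceeded control replicate 2 (81.6). The log2 fold changes were 1.58 ± 0.37 (log2, SE, edgeR, 10-count fit, adjusted p = 0.0140) after SCL and 1.22 ± 0.40 (log2, SE, edgeR, 10-count fit, adjusted p = 0.0367) after ECL. The SCL call was lost without SCL replicate 3 and the ECL call without ECL replicate 2 or 4 or control replicate 1 or 3 (edgeR, adjusted p = 0.0611 and up to 0.151). Of 100-base stretches, 76.2% in Cks2 and 85.1% in Ccnb1 occur once in the annotated transcripts, so the counts of both are less certain.

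Ccna2, cyclin A2, which acts from S phase to early mitosis, had 43.3, 70.5, 73.0, 52.6 and 93.1 in controls, 121, 122, 137 and 110.0 after SCL and 111, 74.5, 69.8 and 133 after ECL. SCL and controls did not overlap, and ECL replicates 2 and 3 lay within the controls. It was called after SCL, 0.97 ± 0.30 (log2, SE, edgeR, 10-count fit, adjusted p = 0.0431), and this call was lost in 8 of the 9 fits that left out 1 library, each except that without control replicate 5 (largest edgeR adjusted p = 0.127). After ECL the log2 fold change of Ccna2 was 0.63, with a 95% interval of -0.10 to 1.37 in the 10-count fit. Of the exon bases of Ccna2, 12.5% are shared with Exosc9 on the opposite strand, and strand was not used in counting. Cks1b, the relative of Cks2, was not called after either lesion, with a log2 fold change of 0.41 (-0.03 to 0.86) after SCL that was called without control replicate 4 (edgeR, adjusted p = 0.0479), with TMM factors over all symbols (adjusted p = 0.0313) or with no minimum (adjusted p = 0.0305).

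Top2a and Mki67 are widely used marks of dividing cells. Top2a, the topoisomerase that untangles sister chromatids, had 386, 261, 505, 929 and 396 in controls, 1081, 1015, 1021 and 1251 after SCL and 355, 508, 408 and 835 after ECL. SCL libraries lay above all others, and ECL libraries within the range of the controls. It rose after SCL, 1.15 ± 0.28 (log2, SE, edgeR, adjusted p = 0.0124), and after ECL the log2 fold change was 0.10, with an interval of -0.62 to 0.81. Mki67, which coats mitotic chromosomes, overlapped between groups, with log2 fold changes of 0.54 after SCL (95% interval -0.02 to 1.09, edgeR, adjusted p = 0.142) and -0.05 after ECL (-0.72 to 0.63). Mki67 was called after SCL with TMM factors over all symbols (edgeR, adjusted p = 0.0275) or with no minimum (adjusted p = 0.0247).

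Of the 6 genes of the anaphase promoting complex and the checkpoint, 3 were called higher after SCL and 1 after ECL (of all genes, 9.19% and 11.7%). Ube2c, the enzyme that hands ubiquitin to the complex, had 123, 77.9, 36.5, 48.7 and 53.6 in controls, 309, 314, 579 and 426 after SCL and 188, 218, 136 and 357 after ECL. Each lesioned library was above each control. The log2 fold changes were 2.57 ± 0.35 (log2, SE, edgeR, adjusted p = 0.00128) after SCL and 1.80 ± 0.37 (log2, SE, edgeR, 10-count fit, adjusted p = 0.00357) after ECL. Of the exon bases of Ube2c, 22.8% are shared with Tnnc2 on the opposite strand, and strand was not used in counting. Cdc20, the activator of the complex, had 24.9, 45.8, 55.5, 48.7 and 18.9 in controls, 264, 209, 211 and 241 after SCL and 87.0, 51.0, 61.9 and 119.7 after ECL. All SCL libraries were above all others, and ECL replicate 2 was within the controls. The log2 fold changes were 2.66 ± 0.32 (log2, SE, edgeR, 10-count fit, adjusted p = 0.00103) after SCL and 1.14 ± 0.41 (log2, SE, edgeR, 10-count fit, adjusted p = 0.0571) after ECL, of which the second was not called in edgeR and was called in DESeq2 (adjusted p = 0.0332).

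Mad2l1, the checkpoint protein that holds Cdc20 back, had 249, 298, 175, 462 and 179.9 in controls, 838, 438, 440.3 and 490.3 after SCL and 497, 426, 239 and 352 after ECL. SCL replicate 1 stood far above the other SCL libraries, and control replicate 4 lay above SCL replicates 2 and 3. The SCL value, 1.02 ± 0.30 (log2, SE, edgeR, adjusted p = 0.0262), was called, and the call was lost without SCL replicate 1 (log2 fold change 0.74, edgeR, adjusted p = 0.101) or control replicate 1, 3 or 5. After ECL the log2 fold change was 0.48 (-0.17 to 1.13), and it was called without control replicate 4 (0.75, edgeR, adjusted p = 0.0499). Bub1, the kinase that recruits checkpoint proteins to kinetochores, had 44.6, 64.3, 82.5, 71.8 and 75.7 in controls, 61.1, 70.3, 69.0 and 72.4 after SCL and 23.9, 27.5, 15.8 and 53.2 after ECL. SCL libraries lay within the controls, and the ECL libraries lay below all SCL libraries, 3 of them below all controls. The log2 fold changes of Bub1 were 0.09 ± 0.31 (log2, SE, edgeR, 10-count fit, adjusted p = 0.860) after SCL and -1.08 ± 0.42 (log2, SE, edgeR, 10-count fit, adjusted p = 0.0788) after ECL, neither called, though without ECL replicate 4 it was called lower after ECL, -1.49 (log2, edgeR, adjusted p = 0.0422). Its checkpoint partners Bub1b and Ttk overlapped between all groups. Neither was called, with log2 fold changes in the 10-count fit of 0.26 and 0.15 after SCL and -0.08 and -0.65 after ECL.

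Of the 7 centromere and kinetochore genes, 5 were called higher after SCL and 3 after ECL (of all genes, 9.19% and 11.7%), with medians of 1.51 and 0.52. Cenpa, the histone variant that marks the centromere, had 207, 203, 63.5, 204 and 249 in controls, 536, 503, 632 and 641 after SCL and 356, 371, 532 and 569.9 after ECL. Control replicate 3 was well below the other controls, and all lesioned libraries were above all controls. The log2 fold changes were 1.64 ± 0.30 (log2, SE, edgeR, adjusted p = 0.00338) after SCL and 1.31 ± 0.32 (log2, SE, edgeR, adjusted p = 0.00845) after ECL. Cenpf, a large protein of the outer kinetochore and nuclear matrix, had 292, 249, 352, 505 and 147 in controls, 923, 708, 733 and 936 after SCL and 298, 345, 232 and 617 after ECL. SCL libraries lay above all others, and 3 ECL libraries within the controls. Cenpf rose after SCL, 1.42 ± 0.28 (log2, SE, edgeR, adjusted p = 0.00472), and after ECL its log2 fold change was 0.28 (-0.45 to 1.01). The motor Cenpe was not called after either lesion in the 150-count or 10-count fit, with log2 fold changes of 0.57 (-0.23 to 1.38) after SCL and 0.25 (-0.59 to 1.09) after ECL, and after SCL it was called with no minimum (edgeR, adjusted p = 0.0288).

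The NDC80 complex is built from Ndc80, Nuf2, Spc24 and Spc25, and its 4 genes differed. Spc25 had 235, 183, 187, 194 and 213 in controls, 923, 704, 591 and 777 after SCL and 415, 371, 256 and 507 after ECL. The controls were close together, and the 3 groups did not overlap. Spc25 rose by 1.89 ± 0.18 (log2, SE, edgeR, adjusted p = 0.000176) after SCL and by 0.95 ± 0.23 (log2, SE, edgeR, adjusted p = 0.00799) after ECL. Spc24 had 44.6, 54.4, 85.7, 46.2 and 17.4 in controls, 194, 147, 109 and 159 after SCL and 118, 90.8, 82.2 and 129 after ECL. SCL and controls did not overlap, and ECL replicate 3 lay just below control replicate 3. The log2 fold changes were 1.71 ± 0.38 (log2, SE, edgeR, 10-count fit, adjusted p = 0.0108) and 1.18 ± 0.39 (log2, SE, edgeR, 10-count fit, adjusted p = 0.0396), and the ECL call was lost in 7 of the 9 fits that left out 1 library, each except those without control replicate 3 or 5 (largest edgeR adjusted p = 0.124).

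Nuf2 had 147, 167, 122, 294 and 260.3 in controls, 731, 432, 511 and 386 after SCL and 216, 308, 153 and 389.8 after ECL. SCL libraries were above the controls, and ECL libraries overlapped both groups. It rose after SCL, 1.39 ± 0.28 (log2, SE, edgeR, adjusted p = 0.00569), with a log2 fold change of 0.44 (-0.25 to 1.13) after ECL. Ndc80 itself had 101, 19.8, 205, 147 and 78.9 in controls, 99.5, 90.1, 125 and 124 after SCL and 78.0, 85.7, 67.6 and 83.9 after ECL. The controls spread around both lesioned groups, which did not overlap each other, with ECL below SCL. The log2 fold change of Ndc80 was 0.10 after SCL, with a 95% interval of -0.88 to 1.07, and -0.37 (-1.35 to 0.60) after ECL, both in the 10-count fit. Per kilobase of exon, mean control levels were 17 for Ndc80, 31.2 for Nuf2, 19.3 for Spc24 and 63.5 for Spc25. After SCL these levels per kilobase were 16.9, 81.2, 59.2 and 235, with the lowest mean for Ndc80 and the highest for Spc25 in both groups.

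**Figure D4:**
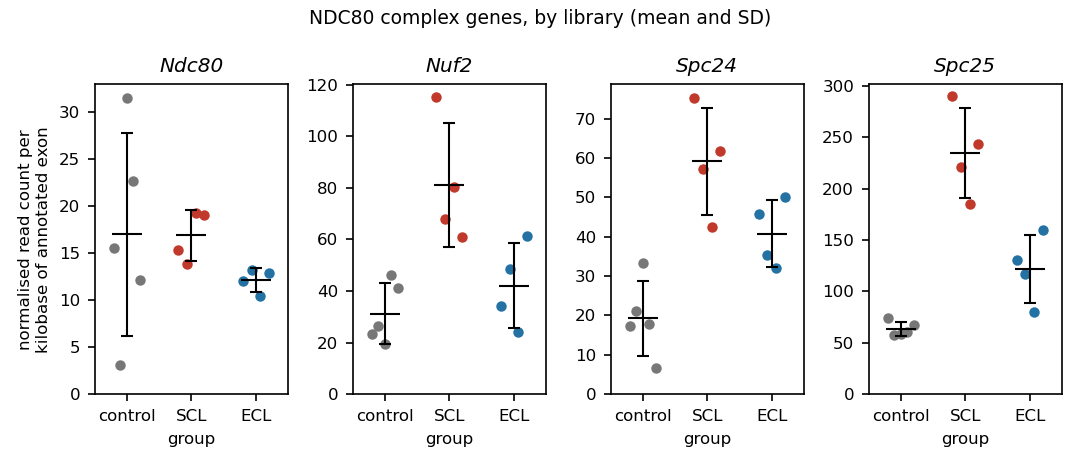
Normalised read counts per kilobase of exon (vertical axis) of the 4 genes of the NDC80 complex in each library of the control, SCL and ECL groups (horizontal axis), with the mean and SD of each group. Spc25, Spc24 and Nuf2 sit higher after SCL than in controls, while the Ndc80 libraries after SCL lie within the spread of the controls.

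The 8 kinesins, motors that move chromosomes and sort microtubules, had the smallest medians of the 7 groups, with log2 fold changes of 0.44 after SCL and 0.07 after ECL, and edgeR called 1 higher after SCL and 0 after ECL (of all genes, 9.19% and 11.7%). At an unadjusted p-value under 0.05, edgeR had 0 kinesins after ECL, and DESeq2 called 2 after SCL, Kif22 and Kif23, and 0 after ECL. Kif23, the motor of the centralspindlin complex, had 90.5, 61.8, 73.0, 47.5 and 71.0 in controls, 112, 139, 126 and 188 after SCL and 39.2, 87.7, 52.9 and 97.2 after ECL. SCL libraries were above all others, and the ECL libraries spread across and beyond the controls. It was called after SCL, 1.11 ± 0.29 (log2, SE, edgeR, 10-count fit, adjusted p = 0.0219), and the call was lost without SCL replicate 2, 3 or 4 (largest edgeR adjusted p = 0.0613). Kif22, a motor on chromosome arms, had 138, 207, 176, 154 and 131 in controls, 196, 218, 242 and 256 after SCL and 164, 156, 179 and 187 after ECL. SCL replicate 1 lay below control replicate 2, and all ECL libraries lay below all SCL libraries. Kif22 was not called in edgeR, with log2 fold changes of 0.50 (0.02 to 0.98, edgeR, adjusted p = 0.113) after SCL and, in the 10-count fit, 0.18 (-0.32 to 0.69) after ECL. After SCL, DESeq2 (adjusted p = 0.0424) and edgeR with TMM factors over all symbols (adjusted p = 0.0389) called it.

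Kif4, Kif11, Kif15, Kif20a, Kif20b and Kif2c overlapped between controls and both lesions. In the 10-count fit, their log2 fold changes ran from 0.02 for Kif15 to 1.01 for Kif2c after SCL and from -0.33 for Kif11 to 0.81 for Kif2c after ECL. Kif2c, which takes microtubules apart at the centromere, spread from 9.47 to 122 within the controls. Kif20a shares 29.3% of its exon bases with Cdc23, and Kif4 shares 15.1% with Pdzd11.

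Of the 7 mitotic kinases, passenger proteins and related genes, 5 were called higher after SCL and 3 after ECL (of all genes, 9.19% and 11.7%), with medians of 1.63 and 1.32, and their summed level was 4.20 times the control mean after SCL and 2.23 times after ECL. Pbk, a kinase of dividing cells, had 138, 146, 44.4, 348 and 6.31 in controls, 1244, 866, 923 and 968 after SCL and 291, 363, 115 and 642 after ECL. The controls spread widely, from control replicate 5 to control replicate 4, and all SCL libraries were above all others. Pbk rose after SCL, 2.87 ± 0.61 (log2, SE, edgeR, adjusted p = 0.00659), and without control replicate 4 the log2 fold change was 3.54. After ECL it was 1.37 ± 0.68 (log2, SE, edgeR, adjusted p = 0.145), not called, and it was called without control replicate 4, 2.06 (edgeR, adjusted p = 0.0297).

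Aurka, the kinase of the spindle poles, had 59.0, 65.6, 34.9, 24.4 and 36.3 in controls, 135, 103, 137 and 86.4 after SCL and 106, 79.6, 96.9 and 164 after ECL. Both lesions were above all controls and overlapped each other, and Aurka was the single gene of the 44 whose highest library was of the ECL group. Its log2 fold changes were 1.46 ± 0.36 (log2, SE, edgeR, 10-count fit, adjusted p = 0.0176) after SCL and 1.41 ± 0.38 (log2, SE, edgeR, 10-count fit, adjusted p = 0.0138) after ECL. The SCL call was lost without SCL replicate 1 or 3 (edgeR, adjusted p of 0.0580 and 0.0651) and the ECL call without ECL replicate 4 (edgeR, adjusted p = 0.0760). Tpx2, which activates Aurka on the spindle, had 199, 245, 368, 279.6 and 218 in controls, 606, 453, 406 and 532 after SCL and 244, 273, 238 and 413 after ECL. SCL libraries were above the controls, and 3 ECL libraries lay within them. Tpx2 rose after SCL, 0.93 ± 0.22 (log2, SE, edgeR, adjusted p = 0.00993), with a log2 fold change of 0.16 (-0.37 to 0.70) after ECL.

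Birc5, known as survivin, and Cdca8, known as borealin, place the kinase Aurkb at the centromere. Birc5 had 62.9, 124, 82.5, 156 and 28.4 in controls, 269, 285, 383 and 245 after SCL and 213, 222, 194 and 292 after ECL. All lesioned libraries were above all controls, and Birc5 rose by 1.70 ± 0.38 (log2, SE, edgeR, adjusted p = 0.00793) after SCL and by 1.43 ± 0.37 (log2, SE, edgeR, 10-count fit, adjusted p = 0.0119) after ECL. Cdca8 had 106, 116, 139.7, 123 and 41.0 in controls, 295, 237, 194 and 284 after SCL and 167, 149, 114 and 194 after ECL. SCL and ECL did not overlap, by a small margin, and 3 ECL libraries lay above all controls. Cdca8 rose after SCL, 1.26 ± 0.31 (log2, SE, edgeR, adjusted p = 0.0126), and after ECL the value was 0.66 ± 0.32 (log2, SE, edgeR, 10-count fit, adjusted p = 0.157). Aurkb had 68.2, 22.3, 14.3, 5.13 and 44.2 in controls, 89.0, 87.2, 77.8 and 94.7 after SCL and 60.5, 42.9, 78.8 and 55.3 after ECL. Each SCL library was above each control, but the controls ranged widely and Aurkb was not called, 1.57 ± 0.55 (log2, SE, edgeR, 10-count fit, adjusted p = 0.0651) after SCL and 1.02 ± 0.57 (log2, SE, edgeR, 10-count fit, adjusted p = 0.218) after ECL. Without control replicate 1 it was called after SCL, 2.08 (log2, edgeR, adjusted p = 0.0314), as it was in DESeq2 (adjusted p = 0.0262) and with halved counts (edgeR, adjusted p = 0.0493).

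Plk1, the polo-like kinase of mitotic entry, was the lowest of the list per kilobase in controls (6.91), with 26.2, 12.4, 25.4, 2.56 and 9.47 normalised counts in controls, 40.1, 34.7, 48.3 and 55.7 after SCL and 21.2, 16.3, 31.5 and 34.8 after ECL. SCL and controls did not overlap, and edgeR did not call the gene, 1.63 ± 0.58 (log2, SE, edgeR, 10-count fit, adjusted p = 0.0673) after SCL and 0.85 ± 0.63 (log2, SE, edgeR, 10-count fit, adjusted p = 0.359) after ECL, while DESeq2 called it after SCL (adjusted p = 0.0255). Cdca3, which helps to remove the inhibitor Wee1 at mitotic entry, had 47.2, 64.3, 108, 69.3 and 53.6 in controls, 248, 288, 312 and 209 after SCL and 115, 151, 106 and 268 after ECL. SCL lay far above the controls, and ECL replicate 3 just below control replicate 3. Cdca3 rose by 2.04 ± 0.28 (log2, SE, edgeR, 10-count fit, adjusted p = 0.00165) after SCL and by 1.32 ± 0.35 (log2, SE, edgeR, 10-count fit, adjusted p = 0.0132) after ECL, and the ECL call was lost without ECL replicate 4 (edgeR, adjusted p = 0.0914).

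Of the 8 genes of the spindle and of cytokinesis, 4 were called higher after SCL and 0 after ECL (of all genes, 9.19% and 11.7%), with medians of 0.90 and 0.21. After ECL 2 of the 8, Ckap2l and Hmmr, had an unadjusted edgeR p-value under 0.05, against 35.4% of all genes. DESeq2 called none of the 8. Ckap2, which promotes microtubule growth at the spindle, had 339.6, 275, 190.4, 227 and 109 in controls, 874, 789, 750.2 and 904 after SCL and 212, 310.2, 204 and 642 after ECL. SCL libraries were above all others, and ECL replicate 4 was above the controls while the other ECL libraries lay within them. Ckap2 rose after SCL, 1.86 ± 0.26 (log2, SE, edgeR, adjusted p = 0.00141), and after ECL the log2 fold change was 0.59 (-0.21 to 1.38). Its relative Ckap2l had 34.1, 69.3, 69.8, 97.5 and 45.8 in controls, 246, 174, 206 and 260.4 after SCL and 107, 113, 48.4 and 209 after ECL. SCL and controls did not overlap, and ECL spanned both groups. Ckap2l rose after SCL, 1.90 ± 0.31 (log2, SE, edgeR, 10-count fit, adjusted p = 0.00299), and after ECL the value was 1.01 ± 0.41 (log2, SE, edgeR, 10-count fit, adjusted p = 0.0890), called without ECL replicate 3 (edgeR, adjusted p = 0.0337).

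Hmmr, which keeps the spindle poles together, had 102, 75.4, 186, 108 and 71.0 in controls, 289.7, 218, 253 and 224 after SCL and 122, 187, 146 and 187 after ECL. SCL lay above both other groups. Hmmr rose after SCL, 1.19 ± 0.29 (log2, SE, edgeR, adjusted p = 0.0126), and after ECL the value was 0.67 ± 0.31 (log2, SE, edgeR, 10-count fit, adjusted p = 0.135), called without control replicate 3 (edgeR, adjusted p = 0.0358). Racgap1, the partner of Kif23 in centralspindlin, had 233, 263, 321, 98.8 and 237 in controls, 326, 403, 319 and 458 after SCL and 226, 249.97, 223 and 272 after ECL. SCL replicate 3 lay just below control replicate 3, and ECL libraries were below all SCL libraries. Racgap1 was not called, 0.71 ± 0.29 (log2, SE, edgeR, adjusted p = 0.0893) after SCL and 0.08 ± 0.29 (log2, SE, edgeR, adjusted p = 0.858) after ECL. After SCL it was called in DESeq2 (adjusted p = 0.0353) and in edgeR with TMM factors over all symbols (adjusted p = 0.0416) or with no minimum (adjusted p = 0.00881). Prc1, Nusap1 and Anln overlapped between all groups, with log2 fold changes in the 10-count fit of 0.51, 0.50 and -0.19 after SCL. Anln, which shapes the contractile ring, was the 1 gene of the 44 with a negative log2 fold change after SCL in the 10-count fit, and its 95% interval was -0.88 to 0.50.

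The difference between the lesions was tested directly, with 4 ECL against 4 SCL libraries. More of the ECL than of the SCL cultures were male. The 150-count fit called no gene of the list with or without a sex term, so it could not show the part of sex. The genes were read in the same libraries and are not independent observations. All but 1 of the 44 genes, Anln, were lower after ECL than after SCL, with a median log2 difference of -0.60 against 0.01 over all genes in the 10-count fit. ECL and SCL libraries did not overlap for 14 genes, all lower after ECL, against 2.29% of 20653 genes. They were Ccnb2, Top2a, Cdc20, Bub1, Cenpf, Ndc80, Spc25, Kif22, Kif23, Cdca8, Pbk, Ckap2, Hmmr and Racgap1. In edgeR, 0 of the 44 were called, and 0 of all 20653 genes. Without adjustment, 28 of 44 had a p-value under 0.05, against 7.19% of all genes. DESeq2 called 7 of the 44 lower after ECL, against 0.228% of all genes, and the same 7 with the minimum of 150 (32 tested), against 0.482% of 12232: Ccnb2, Top2a, Cdc20, Cenpf, Spc25, Pbk and Ckap2. With no minimum edgeR called 11 lower, against 0.351% of 44182. Whether a difference was called depended on the tool and on the genes entered.

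In this comparison Cdc20 had a log2 difference of -1.52 ± 0.26 (log2, SE, edgeR, adjusted p = 0.299), Pbk of -1.49 ± 0.38 (log2, SE, edgeR, adjusted p = 0.460) and Ckap2 of -1.27 ± 0.32 (log2, SE, edgeR, adjusted p = 0.460). Each SCL library of these genes was above each ECL library. The difference was -1.14 ± 0.27 (log2, SE, edgeR, adjusted p = 0.390) for Cenpf, -1.11 ± 0.25 (log2, SE, edgeR, adjusted p = 0.382) for Ccnb2 and -1.04 ± 0.24 (log2, SE, edgeR, adjusted p = 0.382) for Top2a. Aurka, at a log2 difference of -0.06 (-0.63 to 0.52, 10-count fit), and Cenpa, at -0.33 (-0.74 to 0.08), had smaller differences, with intervals that still allow higher or lower levels after ECL. Without ECL replicate 4, edgeR called Ckap2, -1.77 (log2, adjusted p = 0.0239).

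The ECL libraries differed among themselves more than the SCL libraries. ECL replicate 4 was the highest ECL library for 31 of the 44 genes and ECL replicate 3 the lowest for 29. Their member sums were the ends of the ECL range, 11984 and 6703. Without ECL replicate 4, 6 genes in place of 11 were called higher after ECL (Ccnb2, Cdk1, Ube2c, Cenpa, Spc25 and Birc5), and Bub1 was called lower. Among controls, replicate 5 was the lowest for 18 genes. Of all 13 libraries, the highest was an SCL library for 32 genes, a control library for 11 and an ECL library for 1, and the lowest was a control library for 37 and an ECL library for 7. The 11 genes that were highest in a control were Bub1, Bub1b, Ttk, Cenpe, Ndc80, Kif4, Kif11, Kif15, Kif2c, Anln and Nusap1, none of which was called in the 150-count or 10-count fit with all libraries.

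The log2 fold change of the genes went with the length of the gene. Over the 44 genes, the Spearman correlation with exon bases was -0.55 after SCL and -0.59 after ECL, and over all genes with 1 annotated length it was -0.17 (21219 genes) and -0.18 (20695 genes). The points share the same libraries, so these are descriptions. Of 15 genes under 4000 exon bases, 12 were called after SCL, against 12.3% of all genes of that length, and 8 after ECL, against 16.0%. Of 15 genes from 4000 to 6000 bases, 7 were called after SCL, against 6.92%, and 3 after ECL, against 8.22%. Of 14 genes of 6000 bases or more, 5 were called after SCL, against 4.07%, and 0 after ECL, against 4.98%. The part of length in the results was not tested.

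**Figure D5:**
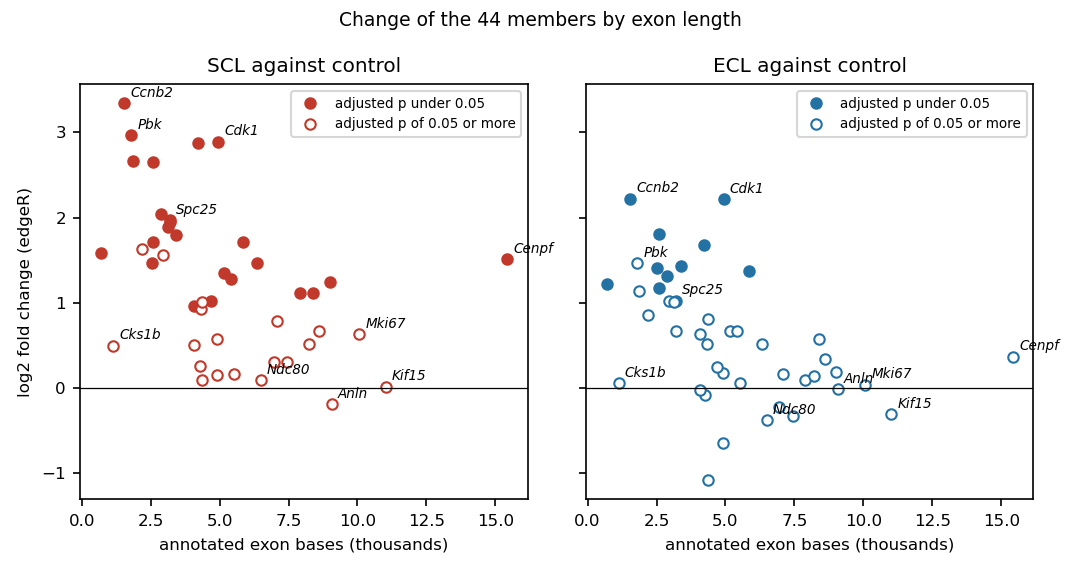
Log2 fold change against control in the 10-count fit (vertical axis) by the exon bases of each of the 44 genes (horizontal axis), after SCL and after ECL, filled where the adjusted p-value was under 0.05. Short genes lie higher after both lesions, and several long genes, such as Cenpf, still lie above 0 after SCL.

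Genes of the same processes outside the list were read from 8 further lists, in the 10-count fit. Of 35 other kinetochore and checkpoint genes, 10 were called higher after SCL and 6 after ECL (28.6% and 17.1%, where the shares of all genes called higher were 9.19% and 11.7%), with medians of 0.78 and 0.52. Among them Cenpl and Cenpm, of the inner kinetochore, had log2 fold changes of 1.96 ± 0.32 (log2, SE, edgeR, adjusted p = 0.00328) and 2.31 ± 0.48 (log2, SE, edgeR, adjusted p = 0.00867) after SCL and 1.64 ± 0.36 (log2, SE, edgeR, adjusted p = 0.00464) and 2.51 ± 0.44 (log2, SE, edgeR, adjusted p = 0.00139) after ECL. Knstrn, a kinetochore adaptor, rose by 1.87 ± 0.35 (log2, SE, edgeR, adjusted p = 0.00568) after SCL, and Pmf1, of the MIS12 complex, by 2.20 ± 0.45 (log2, SE, edgeR, adjusted p = 0.00344) after ECL. Of 17 condensin, cohesin and separase genes, 0 were called after ECL. There, 3 had an unadjusted edgeR p-value under 0.05, against 35.4% of all genes. After SCL, 1 was called higher and 2 lower, the latter against 7.49% of all genes. These were Cdca5 (2.36 ± 0.62 (log2, SE, edgeR, adjusted p = 0.0223)), which protects cohesin, and Ncapd3 and Smc1a, with log2 fold changes of -0.62 and -0.50. The list held 5.88% called higher after SCL, under the share of all genes. In the 150-count fit Stag2 was called lower as well after SCL, and Smc1a and Stag2 after ECL.

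Of 17 subunits and partners of the anaphase promoting complex, 2 were called higher after SCL, Anapc10 and Anapc11 (log2 fold changes of 0.86 and 0.60), and 3 after ECL (11.8% and 17.6%), with medians of 0.25 and 0.21. Of 26 genes of mitotic entry and its transcription, 3 were called higher after SCL and 2 after ECL (11.5% and 7.69%), with medians of 0.17 and 0.07. The largest of these was Cdkn3, a phosphatase of cyclin-dependent kinases, at 3.04 ± 0.58 (log2, SE, edgeR, adjusted p = 0.00616) after SCL. Of 28 other spindle, centrosome and cytokinesis genes tested of 31, 3 were called higher after SCL and 1 after ECL (10.7% and 3.57%). Kpna2, an importin, rose by 2.46 ± 0.33 (log2, SE, edgeR, adjusted p = 0.00165) after SCL and by 1.94 ± 0.35 (log2, SE, edgeR, adjusted p = 0.00151) after ECL, and Aspm, of the spindle pole, by 1.41 ± 0.23 (log2, SE, edgeR, adjusted p = 0.00303) after SCL. Over the kinetochore, condensin, anaphase promoting complex, mitotic entry and spindle lists, 123 genes were tested. After SCL 19 (15.4%, against 9.19% of all genes) were called higher, 10 of them in the kinetochore list, and 2 lower, against 7.49%. Without adjustment, 17 of 35 kinetochore genes and 5 of 17 condensin genes had an edgeR p-value under 0.05 after SCL, in either direction. So had 6 of 17 anaphase promoting complex, 5 of 26 mitotic entry and 8 of 28 spindle genes, against 33.7% of all genes. After ECL 12 (9.76%, against 11.7%) were called higher and 0 lower, against 11.4%. There, 25 of the 123 had an unadjusted edgeR p-value under 0.05 in either direction, against 35.4% of all genes. Both the share called higher after ECL and this share were below those of all genes. The 150-count fit also called Cit lower after SCL and Kif2a and E2f3 lower after ECL.

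Genes of the stages before mitosis were read in the same way. Of 45 DNA replication genes tested, after SCL 6 rose (13.3%, against 9.19% of all genes) and 1 fell, against 7.49%. After ECL 3 rose (6.67%, against 11.7%) and 1 fell, against 11.4%. The medians were 0.24 after SCL and 0.20 after ECL. Gins2, of the replicative helicase, rose by 1.84 ± 0.29 (log2, SE, edgeR, adjusted p = 0.00244) after SCL and by 1.77 ± 0.30 (log2, SE, edgeR, adjusted p = 0.00108) after ECL. Of 8 G1 cyclins and kinases, 1 was called higher after SCL (12.5%) and 3 after ECL (37.5%), Ccnd1, Ccnd3 and Cdk4, with log2 fold changes of 1.03, 1.27 and 0.85. The 150-count fit instead called Ccnd2 lower after SCL. Cdkn1b, the inhibitor p27, fell after both lesions, -1.77 ± 0.27 (log2, SE, edgeR, adjusted p = 0.00239) and -2.13 ± 0.28 (log2, SE, edgeR, adjusted p = 0.000214). Of the 6 inhibitors tested of 7, 1 other was called, Cdkn2d, higher after ECL (0.96 ± 0.23 (log2, SE, edgeR, adjusted p = 0.00821)).

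Microglia markers moved with the lesions as a set, and other glial lists in part. Of 15 microglia markers, none at 0 in any library, 14 were called higher after SCL and 10 after ECL in the 10-count fit (93.3% and 66.7%, against 9.19% and 11.7% of all genes). Their summed level was 25663 to 29211 in controls, 46936 to 83774 after SCL and 46419 to 64079 after ECL, or 2.20 and 2.03 times the control mean. Between the lesions, 3 of the 15 had an unadjusted edgeR p-value under 0.05, against 7.19% of all genes. The median log2 difference of ECL from SCL was -0.19 for the 15, beside -0.60 for the 44 genes. Of 9 astrocyte markers, 5 rose after SCL, while 3 rose and 1 fell after ECL, where 11.4% of all genes were called lower. Their sums were 200621 to 330621 in controls, 244460 to 331879 after SCL and 222546 to 291289 after ECL. Of 6 oligodendrocyte precursor markers, 1 was called after SCL and 2 after ECL, with sums of 3635 to 5121, 4084 to 6202 and 3599 to 5072, which overlapped. Of 6 oligodendrocyte markers, 2 were called higher after each lesion, with overlapping sums of 99319 to 134413, 98777 to 125226 and 87606 to 135382. The astrocyte sums overlapped as well. None of these markers was at 0 in a library. The part of these cells in the levels of the mitosis genes was not tested.

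Of 6 neural progenitor and neuroblast markers tested of 7, 0 were called after SCL, where none had an unadjusted edgeR p-value under 0.05. After ECL 1 was called lower, against 11.4% of all genes. Their sums were 3823 to 4557 in controls, 2338 to 4313 after SCL and 2491 to 3235 after ECL, and 1 of the 7 was at 0 in at least 1 library. The 6 endothelial markers, of which 5 were tested, summed to 508 to 844 in controls, 257 to 394 after SCL and 248 to 378 after ECL. Of these markers 2 were called lower after each lesion, against 7.49% of all genes after SCL and 11.4% after ECL. All 4 lymphocyte and neutrophil markers were at 0 in at least 1 library and summed to at most 52.6.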

How the data were processed

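RNA of 13 CA1 regions was sequenced, and the authors trimmed reads with cutadapt 3.5, mapped them to mm10 with STAR 2.7.8a and counted them per gene with featureCounts 2.0.1, ignoring strand. The authors deposited raw counts, not normalised. Of the values from 1 to 20, 63.0% to 74.3% were even in each library, which points to mates counted separately, so halved counts were also fitted. Sequencing depth limits the genes with low counts.

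Groups and replicate numbers came from the titles. The numbers in the headings of the count columns differ from them in part, and the sex, which those headings give, was read from the heading of each library's own file. Counts were tested in edgeR 4.0.16 (R 4.3.3, glmQLFit and glmQLFTest, two-sided) with TMM factors over the genes tested, a mean minimum of 150 or 10 normalised counts and Benjamini-Hochberg adjustment over all genes tested. The minimums were applied to counts normalised with DESeq2 size factors within each fit. Standard errors were derived from F. In the SCL, ECL and direct fits the biological coefficient of variation came to 0.241, 0.237 and 0.220 with the minimum of 150, and to 0.367, 0.348 and 0.270 with that of 10. The code was tested on simulated data. Alternatives were DESeq2 1.42.0, other scalings, minimums and thresholds, the replicate number as a block, 1 fit of all libraries, a term for sex, halved counts and leaving out each library.

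Members called in any fit or with groups that did not overlap are given in every library, the others by ranges. The further lists give counts and at most 3 called genes per lesion and fit. Stag2, Ccnd2, Cit, Kif2a and E2f3 were named after their values were seen. Members and lists were chosen with earlier results of these data known, and Ube2c, Ccnb1, Ccnb2, Ckap2, Kif22 and Spc25 had been seen in the study. Gene lengths and overlaps are from the GRCm38 annotation, and promoters from RefSeq.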

Additional observations from a re-analysis of the deposited data

Results flagged for a closer look

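Within the control, SCL and ECL groups, 132 sets of levels (44 genes in 3 groups) were examined for 1 library far from the others, and 6 were found, where chance at 1 in 20 gives 6.6. Mad2l1 had 837.8 normalised counts in SCL replicate 1 and 438 to 490.3 in the other SCL libraries, and its call after SCL was lost without that library. Cenpa had 63.5 in control replicate 3 and 203 to 249 in the other controls. Bub1b had 260.3 in control replicate 3 and 101 to 147 in the other controls. Kif15 had 268 in control replicate 4 and 77.3 to 111 in the others, and 159 in SCL replicate 4 and 105 to 111 in the other SCL libraries. Kif20b had 75.7 in control replicate 5 and 151 to 160.0 in the other controls.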

How the results depend on the processing

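No called value was reversed under any alternative run. Of 24 genes with a mean of at least 150, 16 were called higher after SCL, and 30 of 44 with no minimum. After ECL, 3 of 17 were called, and 8 of 25 in 1 fit of all libraries, 11 of 44 with a minimum of 10 and 16 of 44 with no minimum. In the 10-count fit, DESeq2 called 1 gene lower after ECL. For ECL against SCL, DESeq2 called 7 lower with either minimum and edgeR called 11 with no minimum, and 0 in the main setting. Leaving out each library in turn gave 15 to 17 calls after SCL and 20 to 24 in the 10-count fit, 2 to 5 after ECL (5 without control replicate 4) and 6 to 12 in the 10-count fit (6 without ECL replicate 4). It gave 0 to 1 gene lower after ECL in the 10-count fit and 0 to 1 lower in ECL against SCL with either minimum, each 1 without ECL replicate 4. Lower minimums test more genes, but all 44 were already tested with the minimum of 10. With no minimum, the log2 differences of ECL from SCL stayed at -1.49 for Pbk and -0.76 for Tpx2. Their edgeR adjusted p-values went from 0.460 and 0.490 to 3.6e-11 and 0.0443. The cause of these shifts was not tested. Same-numbered libraries of different groups correlated at -0.145 to 0.531, and not every library correlated best with its own number, so the numbers were not taken as pairs. With the replicate block, calls were 16 after SCL, 4 after ECL and 0 in ECL against SCL, and 24 and 11 in the 10-count fits. The block called Aurkb after SCL in place of Kif23 and called Pbk after ECL, and Spc24 was not called after ECL in the 10-count fit. A sex term gave 16, 3 and 0 calls, and a threshold of 0.01 gave 12, 2 and 0. Halved counts gave 16 and 3 calls. Counts were low in the controls for Plk1 and Aurkb, which edgeR did not call after SCL in the 10-count fit and DESeq2 did.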
